A study of Mus musculus with 16 samples.

Results

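The Myb family of mouse holds 3 transcription factors: Myb (c-Myb), Mybl1 (A-Myb) and Mybl2 (B-Myb). They were followed here in embryonic stem (ES) cells, pluripotent cells of the early embryo, that had lost Rybp, through every probe set (a group of short probes against one transcript) that the array annotation assigns to 1 of these 3 symbols. That gave 7 of the 45101 probe sets in the deposited table, namely 3 for Myb, 2 for Mybl1 and 2 for Mybl2, and none of the 7 carries a second gene symbol. Rybp binds Ring1 proteins in variant forms of the Polycomb repressive complex PRC1, and the study compared ES cells with and without it. The family was selected on a measured value of these arrays, the lower intensity of Myb in cells without Rybp at day 12, so every KO or day difference that uses the day 12 arrays is given for the 3 genes as a description with no test. KO against control at day 4 was tested. Clone 15 against clone 10 was tested over all 16 arrays, a comparison that holds KO and control in equal numbers on either side. The day 4 test took its estimate of spread from all 16 arrays, so its p-values are not independent of the day 12 arrays.

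Cells of clones 10 and 15, both on a 129/B6 hybrid background, were either left without 4-hydroxytamoxifen (OHT) and labelled wild-type control, or given OHT at 800 nM for 24 hours to deplete Rybp, and are called KO here. Each of the 4 groups (control and KO at day 4 and at day 12) holds 4 arrays, 2 of clone 10 and 2 of clone 15, numbered replicate 1 and replicate 2. No control cells received OHT, so OHT itself, a recombinase it may activate and the loss of Rybp cannot be told apart, and the 2 clones are the only cell lines. Cultures stood on irradiated fibroblast feeders or on gelatin without the labels saying which array came from which, and whether replicates came from separate cultures is not stated, so the p-values cover array-to-array spread, which may be technical. Values are linear intensities that share 1 quantile normalization, and every array has the median 93.3. Probes bind with different strength, so an order of intensity between probe sets says which signal was brighter and not which transcript was more abundant.

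The Rybp probe set 1421111_at, which is also annotated to the Rybp pseudogene, fell in KO cells, from 2753 ± 609 to 97.4 ± 18.5 at day 4 (SD, n = 4; -4.81 on the log2 scale, limma adjusted p = 8.43e-07) and from 3029 ± 334 to 189 ± 74.6 at day 12 (SD, n = 4; -4.09, limma adjusted p = 4.1e-06). The other one, 1428219_at, which is likewise annotated to both Rybp and its pseudogene, read higher in KO cells without passing the threshold. At day 4 it gave 1363 ± 1282 in control against 6002 ± 1840 in KO cells (SD, n = 4; 2.82 on the log2 scale, limma adjusted p = 0.256). At day 12 it gave 960 ± 963 against 4199 ± 997 (SD, n = 4; 2.95, limma adjusted p = 0.0902). Its control values differed between the clones, with day 4 means of 2449 in clone 10 and 276 in clone 15. The labelled cell type was borne out by 10 ES cell markers, whose summed intensity lay between 108950 and 139350 on the 16 arrays. Pou5f1, which holds cells pluripotent, did not go below 7558 on any array. Dppa5a alone gave 41655 to 52570 of the sum. For KO against control 0 of 10 passed in limma at either day (0 and 4 at an unadjusted p under 0.05). Over all probe sets 4938 of 45037 were at that level at day 12. The 4 were Utf1 (-0.82 on the log2 scale), Sox2 (-0.30), Nanog (0.36) and Klf4 (0.60). Utf1 had a limma adjusted p of 0.0587, and of 0.018 with same-numbered arrays of a clone and day as a block. Over all probe sets the KO cells at day 4 differed from control at 109 of 45037 (0.242%), and at day 12 at 546 (1.21%).

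All 3 proteins bind the same kind of DNA sequence through repeats of one domain and differ mainly in where they are made. Myb drives the growth of blood progenitors and is switched off as they mature, Mybl1 is needed in male germ cells at meiosis, where it turns on genes of the piRNA pathway, and Mybl2 is present in nearly all dividing cells, where it joins the MuvB complex to switch on genes of the G2 phase and of mitosis. ES cells divide fast and are known for high Mybl2. Mybl2 itself is a classical E2F target that is repressed in resting cells, and one of the variant PRC1 complexes that contains Rybp also contains E2f6, a repressor that binds E2F-type sequences. The promoters of Myb and Mybl2 are therefore shown for the E2F-type sequence GGCGGGA, which stands in capitals. The promoter set used here had no entry for Mybl1, so its promoter was neither shown nor searched.

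The 250 bases before the start of Myb (RefSeq, GRCm38.p6, minus strand, chr10:21160985-21161234), written 5′ to 3′ along the gene, hold that sequence near their end. For Mybl2 a window of 24 bases around it is given (plus strand, chr2:163054611-163054634).
Myb: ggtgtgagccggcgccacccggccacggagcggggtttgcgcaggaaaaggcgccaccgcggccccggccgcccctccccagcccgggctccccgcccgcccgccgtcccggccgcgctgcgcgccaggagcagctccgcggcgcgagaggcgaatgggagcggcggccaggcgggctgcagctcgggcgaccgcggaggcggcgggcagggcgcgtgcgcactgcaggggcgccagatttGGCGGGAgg
Mybl2: ccgacgcacttGGCGGGAgatagg

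The E2F-type sequence lay 9 to 3 bases before the annotated start of Myb and 13 to 7 bases before that of Mybl2, on the strand of the gene in both. It occurs, on either strand, in 3204 of 32851 RefSeq promoter windows of 250 bases (9.75%). Searched in the same way, an E-box (CACGTG, in 6.02% of windows), a Myb-type site (AACNGNC, 27.7%) and a cell cycle homology element (TTTGAA, 16.0%) were not found in either window, so no motif overlapped with GGCGGGA. The Myb window was rich in G and C, at 81.2%, and that of Mybl2 held 65.6%, where the middle 50% of all windows ran from 45.2% to 61.2%. A match describes the letters only and says nothing of a protein bound there in these cells.

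Myb was lower in KO than in control cells on all 3 of its probe sets and in each clone and replicate, by about 1 log2 unit at day 4 and by nearly 2 at day 12. On 1421317_x_at, the brightest of the 3, control cells at day 4 gave 2443 and 1252 in clone 10 (replicates 1 and 2) and 1993 and 1137 in clone 15. The KO cells of that day gave 1197 and 633 in clone 10 and 838 and 631 in clone 15. The groups overlapped, because the KO array of clone 10 replicate 1 read higher than the control array of clone 15 replicate 2. Within each pair of the same clone and replicate number the KO array was nevertheless lower, at 42.0% to 55.5% of its control.

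The group means on 1421317_x_at were 1706 ± 621 and 825 ± 266 (SD, n = 4), a log2 fold change of -1.03 ± 0.27 (SE) with a limma adjusted p of 0.256 over all probe sets. Replicate 1 was above replicate 2 in both clones and both conditions at day 4, by 1.33 to 1.95 times. Same-numbered arrays deviated together at day 4. With the pairs of both days as a block the SE was 0.12 and the limma adjusted p 0.0293. At day 12 the 4 control arrays lay between 1226 and 1823 and the 4 KO arrays between 388 and 532, with no overlap. The means were 1565 ± 248 and 461 ± 67.6 (SD, n = 4), a log2 difference of -1.76 ± 0.27 (SE).

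The probe set 1450194_a_at showed the same order with closer pairs. Its day 4 control arrays read 769 and 682 in clone 10 and 737 and 514 in clone 15, and the KO arrays 434 and 352 in clone 10 and 397 and 271 in clone 15, so that the lowest control lay above the highest KO array. The 4 pairs agreed well, with KO at 51.7% to 56.4% of control. The means were 675 ± 114 and 364 ± 70.1 (SD, n = 4), a log2 fold change of -0.90 ± 0.19 (SE) with a limma adjusted p of 0.118 and of 0.0434 with the pairs as a block. At day 12 the controls read 720 and 1111 in clone 10 and 770 and 1051 in clone 15, and the KO arrays 239 and 276 in clone 10 and 229 and 238 in clone 15. The KO arrays of day 12 spanned a narrow range and lay far below the controls, with means of 246 ± 20.8 and 913 ± 197 (SD, n = 4) and a log2 difference of -1.87 ± 0.19 (SE).

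The dimmest of the 3, 1422734_a_at, was the member that passed the threshold at day 4. The control arrays read 288 and 292 in clone 10 and 368 and 218 in clone 15, against 157 and 135 in clone 10 and 71.9 and 97.6 in clone 15 of the KO cells, without overlap. The means of 292 ± 61.3 and 115 ± 38.1 (SD, n = 4) differed by a log2 fold change of -1.38 ± 0.25 (SE), with a limma adjusted p of 0.0467. That call was lost in the fit blocked by pair (limma adjusted p = 0.136) and in the fit with only the arrays of day 4. It was also lost when any 1 array except KO day 12 clone 15 replicate 2 was left out (limma adjusted p up to 0.136). The call thus stood at the edge of the threshold. The pairs were uneven, from 19.5% of control in clone 15 replicate 1 to 54.7% in clone 10 replicate 1. At day 12 the controls gave 388 and 411 in clone 10 and 266 and 393 in clone 15, and the KO arrays 83.1 and 98.0 in clone 10 and 94.9 and 128 in clone 15, a log2 difference of -1.85 ± 0.25 (SE). Again no KO array reached a control array.

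**Figure D1:**
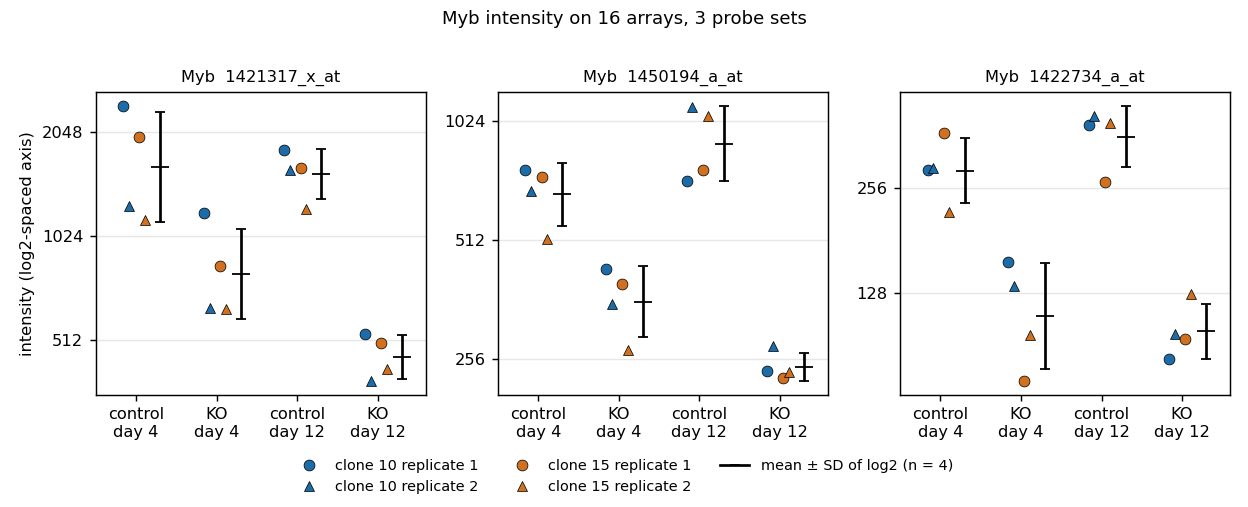
Intensity of the 3 Myb probe sets on the 16 arrays (log2-spaced vertical axis) by group, coloured by clone and shaped by replicate number, with the mean ± SD of log2 values as bars. The KO arrays sit below the controls, with overlap only at day 4 on 1421317_x_at, and the day 12 KO arrays of that probe set lie between 388 and 532.

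The 3 Myb probe sets agreed in sign in 4 of 4 pairs at day 4 and in 4 of 4 at day 12. Over all probe sets, 11.4% were lower in KO cells in all 4 pairs of day 4, 13.5% in all 4 of day 12 and 3.91% in all 8. The fitted log2 differences ran from -1.38 to -0.90 at day 4 and from -1.87 to -1.76 at day 12. Within a pair the median gap between the 3 probe sets was 0.26 on the log2 scale at day 4 and 0.43 at day 12, so the typical pair was closer at day 4. The widest gap was 1.46 at day 4, in the pair with the low KO array of 1422734_a_at, and 0.63 at day 12. A probe set ending in _a_at is designed against several transcripts of 1 gene and one ending in _x_at may hold probes that also match other transcripts.

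In 1 direction, lower in KO, 1 of the 7 member probe sets passed at day 4, beside 7 of 45037 (0.0155%) over the whole table. With the pairs as a block it was 2 of 7, beside 11 of 45037 (0.0244%). Arrays of KO and control did not overlap at day 4 for 2 of the 3 Myb probe sets and for Mybl1 1456951_at. That pattern, with KO below control, was shown by 1.92% of all probe sets. At day 12 all 3 Myb probe sets did not overlap, where 4.10% of all probe sets did the same. From that count nothing is read because Myb was singled out in it.

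Untreated cells at day 12 read close to those at day 4 on 1421317_x_at (log2 difference -0.07 ± 0.27, SE) and somewhat higher on 1450194_a_at (0.43 ± 0.19) and 1422734_a_at (0.33 ± 0.25). In KO cells the day 12 level was below the day 4 level by a log2 difference of -0.80 ± 0.27 on 1421317_x_at, -0.55 ± 0.19 on 1450194_a_at and -0.15 ± 0.25 on 1422734_a_at (SE). The difference between KO and control was thus wider at day 12 than at day 4 on each probe set, by -0.73 ± 0.38, -0.97 ± 0.27 and -0.47 ± 0.35 on the log2 scale in the same order (SE). On 1422734_a_at most of the widening came from the higher control and on 1421317_x_at from the lower KO level.

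Mybl1 gave 2 probe sets that did not agree. On 1456951_at the control arrays of day 4 read 112 and 108 in clone 10 and 114 and 129 in clone 15, and the KO arrays 83.7 and 91.0 in clone 10 and 69.8 and 87.5 in clone 15. No KO array reached a control, a pattern shown by 1.92% of all probe sets. The difference was small, at 115 ± 9.20 against 83.0 ± 9.28 (SD, n = 4) or -0.48 ± 0.20 (SE) on the log2 scale, and did not pass the threshold (limma adjusted p = 0.653, and 0.315 with the pairs as a block). At day 12 the control arrays read 106 and 78.3 in clone 10 and 139 and 107 in clone 15, and the KO arrays 76.6 and 70.3 in clone 10 and 98.1 and 57.2 in clone 15. These groups overlapped, with a log2 difference of -0.51 ± 0.20 (SE). KO was below control in all 4 pairs of either day, as it was for 3.91% of all probe sets.

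The second Mybl1 probe set, 1450481_at, was dim, with no array above 58.6 where the 25th percentile of the whole table is 28.3. Its control arrays of day 4 read 29.5 and 26.4 in clone 10 and 31.6 and 3.58 in clone 15, and the KO arrays 39.2 and 43.8 in clone 10 and 15.7 and 38.1 in clone 15. At day 12 controls read 35.9 and 25.5 in clone 10 and 5.26 and 34.6 in clone 15, against 43.5 and 23.8 in clone 10 and 58.6 and 44.5 in clone 15 of the KO cells. KO was above control in 3 of 4 pairs at each day, by 3.41 (day 4) and 3.48 (day 12) on the log2 scale in the pair with a very low control array and by 0.28 to 0.73 in the others. The log2 fold change at day 4 was 0.89 ± 0.71 (SE; limma adjusted p = 0.964), and its 95% interval of -0.66 to 2.43 also holds the -0.48 of the other Mybl1 probe set. The 2 probe sets had the same sign in 1 of 4 pairs at each day.

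Mybl2 was bright on all arrays, and its level at day 4 followed the replicate number rather than OHT. On 1417656_at control arrays of day 4 read 7500 and 3824 in clone 10 and 7138 and 3294 in clone 15, and KO arrays 7780 and 3945 in clone 10 and 9033 and 3774 in clone 15. Replicate 1 was 1.96 to 2.39 times replicate 2 in the 4 combinations of clone and condition. KO was at 103% to 127% of control within the pairs, and the log2 fold change of 0.16 ± 0.36 (SE) did not pass the threshold (limma adjusted p = 0.999; 95% interval -0.63 to 0.94). With the pairs as a block the limma adjusted p was 0.742.

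On 1454946_at the same arrays gave 2165 and 806 in clone 10 and 2264 and 809 in clone 15 for control, and 2008 and 733 in clone 10 and 2020 and 708 in clone 15 for KO. Replicate 1 was here 2.69 to 2.85 times replicate 2, while KO was at 87.5% to 92.7% of control. The log2 fold change of -0.15 ± 0.44 (SE) did not pass either (limma adjusted p = 0.999; 95% interval -1.11 to 0.81). The 2 Mybl2 probe sets had opposite signs in all 4 pairs of day 4. Within the pairs the sign did not change on either probe set. In the 16 fits without 1 array, which do not use the pairs and lose the balance of replicate numbers, the log2 fold change ran from -0.12 to 0.38 on 1417656_at and from -0.44 to 0.15 on 1454946_at.

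At day 12 the dependence on replicate number turned and shrank. On 1417656_at control arrays read 6155 and 8121 in clone 10 and 3910 and 6174 in clone 15, and KO arrays 4148 and 6290 in clone 10 and 4366 and 5108 in clone 15. On 1454946_at they read 1616 and 1977 in clone 10 and 1179 and 1457 in clone 15 for control, and 1025 and 1527 in clone 10 and 1208 and 1187 in clone 15 for KO. KO and control overlapped on both. KO was below control in 3 of 4 pairs, with clone 15 replicate 1 as the exception, and the log2 differences were -0.26 ± 0.36 on 1417656_at and -0.32 ± 0.44 on 1454946_at (SE). Here both probe sets had the same sign in 4 of 4 pairs, and their log2 differences lay at most 0.12 apart.

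**Figure D2:**
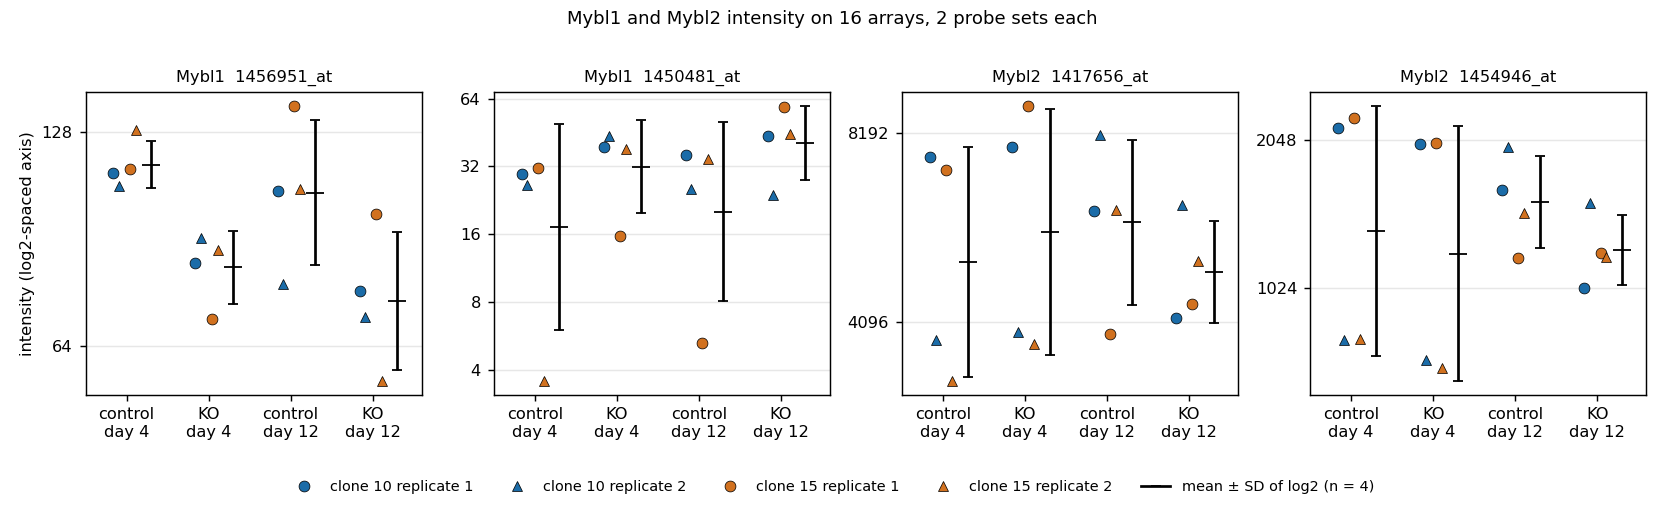
Intensity of the 2 Mybl1 and 2 Mybl2 probe sets on the 16 arrays (log2-spaced vertical axis), marked as for Myb. On both Mybl2 probe sets the day 4 arrays split by replicate number, with replicate 1 at 1.96 to 2.85 times replicate 2, in control and KO cells alike.

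**Figure D3:**
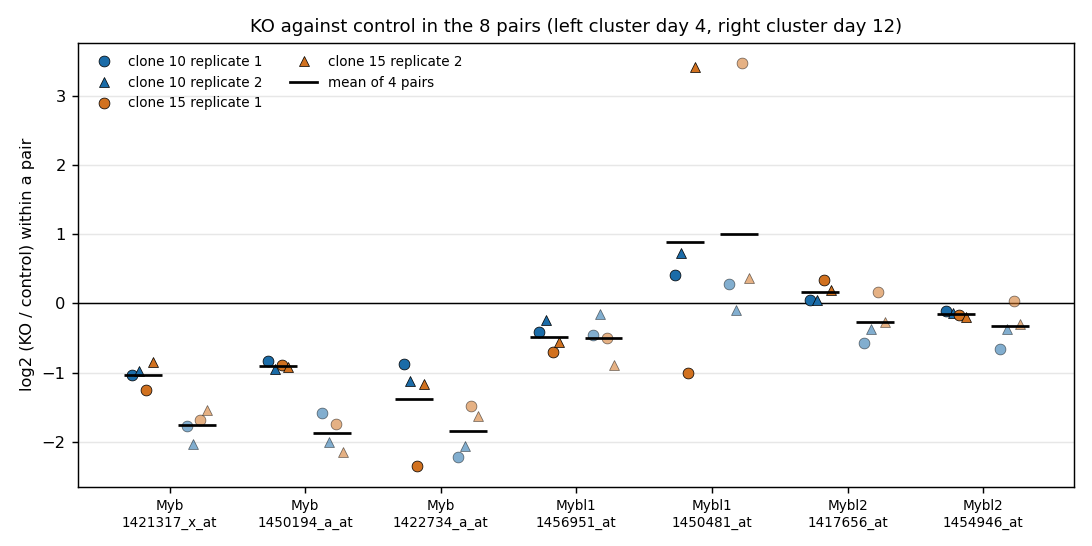
Log2 ratio of KO to control within each of the 8 pairs of the same clone, day and replicate number, for the 7 probe sets, with the mean of 4 pairs as a bar. All 24 Myb values lie below 0, Mybl1 1450481_at scatters from -1.01 to 3.48, and the 2 Mybl2 probe sets lie on either side of 0 at day 4.

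No member differed between the clones beyond the threshold. For clone 15 against clone 10, averaged over the 4 groups, 0 of 7 member probe sets passed the limma threshold and 0 had an unadjusted p under 0.05. Over all probe sets 41 of 45037 (0.0910%) passed and 2550 had an unadjusted p under 0.05. The 3 Myb probe sets were slightly lower in clone 15, with log2 differences of -0.19 ± 0.19, -0.15 ± 0.14 and -0.21 ± 0.18 (SE), so intervals reach from -0.60 to 0.23 at the widest. The difference of the day 4 KO effect between the clones was tested as well, and 0 of 7 passed in limma, with 0 at an unadjusted p under 0.05. Over all probe sets 1 of 45037 (0.00222%) passed and 1594 had an unadjusted p under 0.05. On 1422734_a_at this difference was -0.76 (95% interval -1.77 to 0.24), with KO means of 146 in clone 10 and 84.7 in clone 15 against control means of 290 and 293. On the other 2 Myb probe sets it was -0.04 and -0.02. At day 12, given as a description, the Myb difference between control and KO was present in both clones on 1421317_x_at, from 1710 to 460.3 in clone 10 and from 1421 to 461 in clone 15.

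Genes known to work with or under the 3 factors were read through the brightest probe set of each gene, in 7 lists from textbook knowledge with 103 measured genes. In either direction 2 of 103 (1.94%) passed at day 4, where 0.374% of all 18193 genes did (0.368% higher and 0.0055% lower in KO), and 5 of 103 (4.85%) at day 12, where 1.79% did (1.37% higher and 0.418% lower). For untreated cells at day 12 against day 4, 0 of 103 passed in limma, beside 0.544% of all genes. At an unadjusted p under 0.05 in limma there were 11 of 103, beside 5162 of 45037 over all probe sets. For KO against control these unadjusted counts were 6 of 103 at day 4 and 18 of 103 at day 12. Over all probe sets they were 3060 and 4938 of 45037, the background for the unadjusted list counts. This background holds every probe set, whereas list genes were read through the brightest one. At the adjusted threshold all probe sets passed less often (0.242% at day 4 and 1.21% at day 12) than the brightest of each gene. The unadjusted background may therefore be too low for the lists. The median of all genes was 0.01 on the log2 scale at both days.

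Of 23 measured G2 and mitosis genes, the targets of Mybl2 with MuvB, 0 passed in limma at either day (0 and 3 at an unadjusted p under 0.05), and the list medians were 0.01 at day 4 and -0.02 at day 12 on the log2 scale. Cdc20, which activates the anaphase-promoting complex, had mean intensities of 18515 (control) and 19280 (KO) at day 4, and Top2a, the topoisomerase that untangles chromosomes, 17614 and 16504. Of 17 measured S phase and E2F target genes 0 passed in limma (0 at day 4 and 3 at day 12 at an unadjusted p under 0.05), with medians of -0.06 and -0.12. Under other settings some of them passed at day 12: Ccne2 and E2f1 in the fit blocked by pair (limma adjusted p of 0.0282 and 0.0272, at 0.63 and -0.61 on the log2 scale), and Tk1 (0.50) and Cdt1 (-0.34) under other filters, a floor or another moderation. Pcna, the sliding clamp of DNA replication, had 25304 (control) and 25577 (KO) at day 4, and Mcm7 of the replicative helicase 19140 and 18251.

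Among 12 MuvB, DREAM and FoxM1 partners 0 passed at day 4 in limma (1 at an unadjusted p under 0.05) and 1 fell at day 12, with list medians of -0.04 and -0.09. It was Tfdp2, a dimerization partner of E2F factors, which went from 1247 ± 131 to 746 ± 33.6 (SD, n = 4; -0.74 on the log2 scale, limma adjusted p = 0.0318). The 4 KO arrays read 700 to 774 and the 4 controls 1057 to 1338, and 3 further Tfdp2 probe sets had log2 fold changes of -0.64, -0.70 and -0.47 (limma adjusted p = 0.041, 0.044 and 0.599). The call was lost when any 1 day 12 array except control clone 15 replicate 1 was left out (limma adjusted p up to 0.101), and also in the blocked fit (0.0507), with 1 mean per clone and group (0.113) and with only the arrays of day 12 (0.117). Rbbp4 and Tfdp1, which had the highest intensity in the list, had log2 fold changes of -0.06 and 0.23 at day 4.

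The male meiosis and piRNA genes, targets of Mybl1 in spermatocytes, held 1 of 11 measured genes that rose at day 4 and 2 of 11 at day 12, while the list medians were -0.09 and -0.20. Mael, which acts in piRNA-guided silencing of transposons, rose from 428 ± 40.7 to 1816 ± 72.2 at day 4 (SD, n = 4; 2.09 on the log2 scale, limma adjusted p = 3.8e-05) and from 373 ± 75.3 to 2142 ± 157 at day 12 (2.54, limma adjusted p = 4.1e-06). Mov10l1, the helicase needed to load piRNA precursors, went from 171 ± 75.8 to 593 ± 287 at day 4 (SD, n = 4; limma adjusted p = 0.111, and 0.00466 with the pairs as a block) and rose from 125 ± 22.0 to 595 ± 81.5 at day 12 (limma adjusted p = 0.0116). Mael is also among the germ cell markers, of which 6 of 9 measured rose at day 4 and 7 of 9 at day 12, with summed intensities of 4461 to 5322 in control and 10372 to 11428 in KO cells at day 4. The part of these germ cell genes in the values of the list was not tested.

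Of 12 c-Myb target genes of blood progenitors 1 rose at day 4 and 2 at day 12, with list medians of 0.22 and 0.31. Ada, adenosine deaminase, rose from 255 ± 15.2 to 535 ± 17.2 at day 4 (SD, n = 4; 1.07 on the log2 scale, limma adjusted p = 0.0162) and from 272 ± 60.2 to 553 ± 84.2 at day 12 (1.04, limma adjusted p = 0.0093). Its day 4 call was lost in the blocked fit (limma adjusted p = 0.0704) and without any 1 day 4 array other than control clone 15 replicate 2 (limma adjusted p up to 0.0623). Gata3, a factor of T cell development, rose from 8.54 ± 3.28 to 47.5 ± 18.4 at day 12 (SD, n = 4; 2.47 on the log2 scale, limma adjusted p = 0.014), from a level well under the 25th percentile of the table. With values under that percentile raised to it the log2 fold change was 0.67 (limma adjusted p = 0.0691), and the call was lost as well without control or without KO clone 15 replicate 2 (limma adjusted p up to 0.0539). Others of the list moved either way at day 12 without passing. Bcl2 (-1.74) and Myc (-0.42) read lower in KO cells on the log2 scale (limma adjusted p = 0.376 and 0.774). Lmo2 (2.48), Cd34 (1.72) and Kit (0.54) read higher (limma adjusted p = 0.276, 0.214 and 0.312). Bcl2 in KO cells (27.0), and Lmo2 and Cd34 in control cells (23.3 and 26.8), had means under the 25th percentile of 28.3.

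Of 15 co-factors and regulators of c-Myb activity, among them its coactivators Crebbp and Ep300, 0 passed in limma at either day (0 at day 4 and 2 at day 12 at an unadjusted p under 0.05), with medians of -0.02 and -0.10. Trib2, a pseudokinase, had -0.83 on the log2 scale at day 12 (limma adjusted p = 0.0993), and passed in the blocked fit (0.0482), with the brightest probe set of each gene, with dim probe sets left out and with a floor. Sp1 and Psip1, the list's highest in intensity, had log2 fold changes of -0.13 and -0.12 at day 4. Of 13 other factors with Myb or SANT domains 0 passed in limma at either day (0 at an unadjusted p under 0.05), with medians of 0.03 and 0.05. Cdc5l, a splicing factor with Myb repeats, had 8827 (control) and 9435 (KO) at day 4, and Dnajc2 3947 and 4102.

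**Figure D4:**
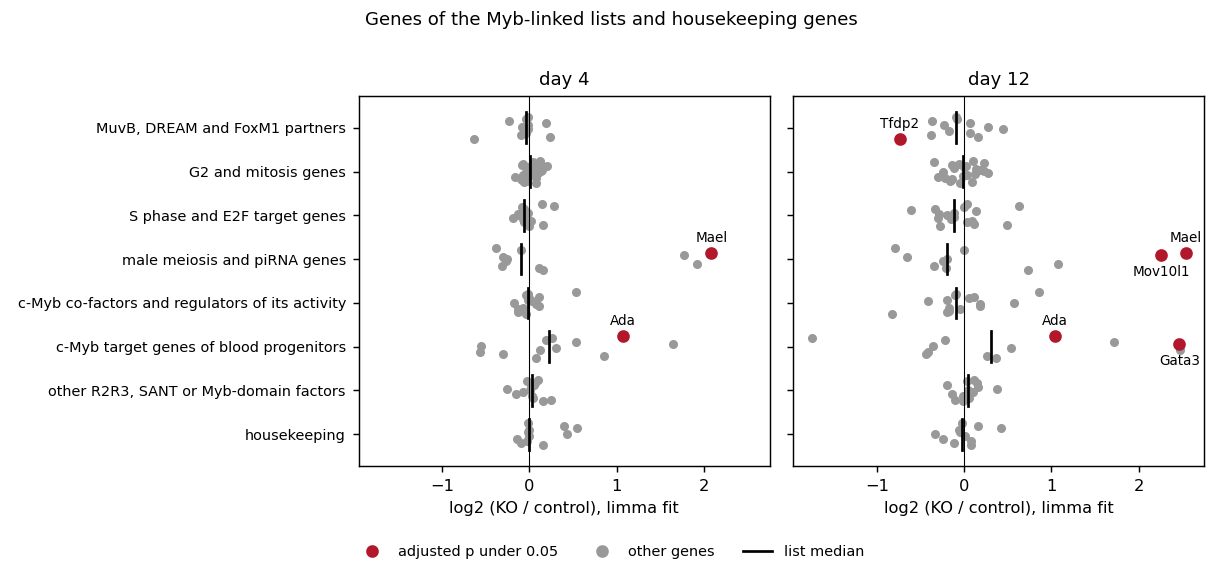
Fitted log2 ratio of KO to control at day 4 and at day 12 for each gene of the 7 lists and for 11 housekeeping genes, through the brightest probe set, with list medians as bars and genes past the threshold in red. The G2 and mitosis genes stay between -0.35 and 0.28, whereas Mael reaches 2.54 at day 12.

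Since Myb marks blood progenitors, 11 measured blood markers were read beside it. In limma 0 of 11 passed for KO against control at day 4 or day 12 (0 and 1 at an unadjusted p under 0.05), and their summed intensity was 602 to 935 in control and 727 to 901 in KO cells at day 4, and 894 to 991 against 872 to 937 at day 12. Ptprc, the pan-leukocyte CD45, had a median of 13.4 over the 16 arrays, Hba-x 17.9 and Cd48 3.89, each under the 25th percentile of the table. The other blood markers had medians above that percentile, from 39.2 for Hbb-bh1 to 316 for Itga2b. Itga2b, Gata1 (111) and Vav1 (110) also lay above the array median of 93.3. In a bulk sample a smaller number of Myb-positive cells and less Myb per cell cannot be told apart.

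Of 9 primed epiblast markers 0 passed in limma at day 4 (3 at an unadjusted p under 0.05; list median -0.72) and 1, Otx2, fell at day 12, from 1914 ± 281 to 585 ± 35.5 (SD, n = 4; -1.70 on the log2 scale, limma adjusted p = 0.0065). At day 12 there were 3 of 9 at an unadjusted p under 0.05 in limma, and the list median was -0.42. Dkk1 (1.46, limma adjusted p = 0.135) and Fgf15 (0.13, limma adjusted p = 0.838) read higher in KO cells at day 12, and the others lower. The summed primed epiblast intensity was 7613 to 9989 in control and 5798 to 7920 in KO cells at day 12. Most of that sum came from Dnmt3b, with means of 5964 and 5317. In untreated cells 4 of 10 primitive endoderm markers rose from day 4 to day 12, with sums from 3719 to 5374 at day 4 and from 11845 to 16787 at day 12. In KO cells the sums were 3929 to 5054 and 14299 to 25432. At day 12 all 10 read higher in KO than in control cells (log2 difference 0.08 for Lamb1 to 1.56 for Pdgfra), while 0 of 10 passed in limma for KO against control at either day (0 at day 4 and 3 at day 12 at an unadjusted p under 0.05). For 11 measured feeder fibroblast markers 0 passed in limma at either day (1 and 1 at an unadjusted p under 0.05), with sums of 1470 to 2158 in control and 1457 to 2889 in KO cells at day 4, and 2068 to 2557 and 2166 to 3251 at day 12. The array's RNA control, the log2 ratio of 3′ to 5′ transferrin receptor probe sets, was higher in KO in 4 of 4 pairs at day 4 (0.20 ± 0.14, SD) and in 1 of 4 at day 12 (-0.02 ± 0.10, SD). The part of these markers and of RNA quality in the Myb difference was not tested.

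The chromosomal neighbours of the 3 genes did not pass the threshold. Next to Myb lies Ahi1, a gene of the primary cilium, with 312 (control) and 212 (KO) at day 4 and 263 and 173 at day 12 (log2 fold changes -0.43 and -0.61, limma adjusted p = 0.987 and 0.685). The other immediate neighbours of Myb are long noncoding RNA genes and had no probe set of their own. Hbs1l, the next coding gene on that side, which was added after the rule for neighbours had reached only noncoding genes, had log2 fold changes of -0.05 and -0.22. Beside Mybl1, Vcpip1 had log2 fold changes of 0.00 and -0.14 and Vxn of -1.04 and -0.43 (limma adjusted p = 0.93 and 0.912), the latter from dim values of 59.2 and 32.0 at day 4. The noncoding neighbours 2610203C22Rik and 1700034P13Rik were dim as well, at 18.4 and 31.5 in control cells of day 4. Beside Mybl2, Ift52 had log2 fold changes of -0.24 and -0.18, Sgk2 of 0.30 and 0.13 and Gtsf1l of 0.06 and 0.03.

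To find the genes with the most similar pattern, each gene was centred on its mean log2 value and compared over the 16 arrays by the root mean square difference, among 11098 genes at or above the table median. This is a description, and all genes share the arrays and their normalization. Nearest to Myb (1421317_x_at, whose own SD over the arrays was 0.85) were Kcnip2 at 0.32, 1700097N02Rik at 0.32, Rufy3 at 0.34, Nrcam at 0.34 and Doc2a at 0.35 on the log2 scale. Kcnip2, a potassium channel subunit, had 321 (control) and 184 (KO) at day 4 and 312 and 127 at day 12. 1700097N02Rik read 1616 and 974 at day 4 and 1467 and 603 at day 12, and it was also among the 5 nearest of the other 2 Myb probe sets. These genes showed the same order as Myb, with KO below control at day 4 and further below at day 12.

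Nearest to Mybl1 (1456951_at) were Stag2, a cohesin subunit, at 0.16, then Trp53bp1 and Luc7l2 at 0.18, C920006O11Rik at 0.18 and Cdc7 at 0.19. Stag2 went from 2324 to 1585 at day 4, a log2 fold change of -0.55 that did not pass (limma adjusted p = 0.287). Nearest to Mybl2 (1417656_at) were Tsc2, Sf3b4, Slc45a4, Acin1 and Dnmt1, at 0.08 to 0.13. All 5 shared the split by replicate number at day 4, with replicate 1 above replicate 2 by 0.98 to 1.09 on the log2 scale, and none of them passed for KO against control at day 4 (limma adjusted p = 0.999 for each). What made the replicates differ was not tested.

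**Figure D5:**
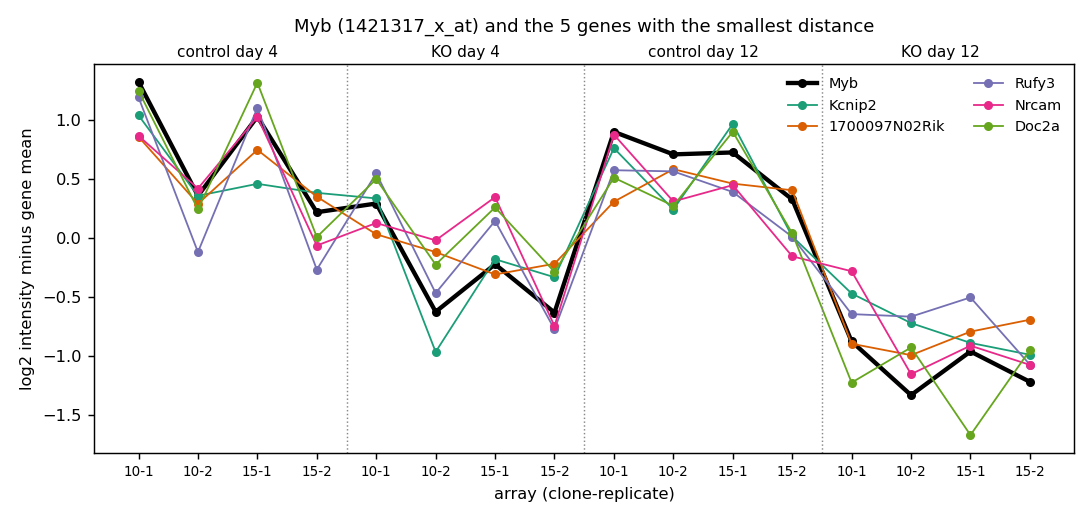
Log2 intensity minus the gene's mean over the 16 arrays for Myb (1421317_x_at, thick black line) and the 5 genes at the smallest root mean square distance, from 0.32 to 0.35. The arrays are ordered by group and named by clone and replicate, and each of the 6 lines has its lowest group mean in the KO cells of day 12.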

How the data were processed

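Total RNA of 16 ES cell samples was hybridised to Affymetrix mouse arrays. The authors deposited linear intensity values, made with Affymetrix Expression Console and RMA per the submitters' processing notes (versions not given in the sources used here). All 16 columns hold 1 set of values, which shows a joint quantile normalization. They were log2-transformed with no offset, although the fit had been planned for log2 values. Names come from the platform annotation, and 64 AFFX controls were left out.

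Differences were tested with limma 3.58.1 (R 4.3.3, statmod 1.5.0) over 45037 probe sets on 16 arrays, with terms for group (4) and clone, eBayes moderation, Benjamini-Hochberg adjustment and a threshold of an adjusted p under 0.05. The difference between clones in the KO effect used 1 mean per clone and group. The procedure was checked on simulated data with independent noise on each array and no clone or replicate-number effect. That check does not cover the shifts that same-numbered arrays shared at day 4. Array number limits the precision. Each list gene was read through its brightest probe set.

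Arrays of the same clone, day and replicate number were checked for pairing. Their deviations from the group means correlated at 0.128 to 0.139 in the 4 pairs of day 4 and at 0.027 to 0.0531 in those of day 12. The best match of an array was its own pair for 8 of 8 arrays at day 4 and for 6 of 8 at day 12. A sign of pairing was thus seen at day 4, and a weaker one at day 12. The blocked fit nevertheless used all 8 pairs, so its day 12 results rest on pairs with little such sign. The labels give no basis for the pairs, and both fits had been seen when the pairs were judged. The closest 2 arrays differed by a root mean square of 1.09 on the log2 scale, so none was a duplicate.

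Members, lists and tests were chosen with earlier results of these data known. Genes were named by rule: every member probe set, both Rybp probe sets, up to 4 genes of each list past the threshold (otherwise the 2 brightest), the 2 nearest genes on either side and the 5 nearest patterns. Otx2, the blood genes and the other cell type markers come from the marker lists. From the pathway lists, Ccne2, E2f1, Tk1, Cdt1, Trib2, Bcl2, Myc, Lmo2, Cd34 and Kit were named outside this rule. Alternatives were other terms, samples, filters, a floor, scaling, moderation, single clones and each array left out. Promoter windows are RefSeq's (GRCm38.p6). Neither scanner files nor detection calls were used.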

Additional observations from a re-analysis of the deposited data

Results flagged for a closer look

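In 28 groups of 4 arrays (7 probe sets in 4 groups) the highest or lowest array was compared with the others on log2 values. Its gap to the nearest, as a share of the range, was set against Dixon's 95% critical value. Intensities are given below for the arrays flagged on that log2 scale, and other scales were not used. In 3 groups 1 array stood apart, where chance gives about 5% of groups. On Myb 1422734_a_at the control array of day 12, clone 15 replicate 1, read 266.2 and lay below the other 3 controls of that day. On Mybl1 1450481_at the control array of day 4, clone 15 replicate 2, read 3.58, and the KO array of day 4, clone 15 replicate 1, read 15.73, both below the other arrays of their group.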

How the results depend on the processing

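The day 12 log2 difference of Myb on 1421317_x_at (-1.76) was the same by construction under the alternatives that change only the error, the probe sets tested or dim values. It was -1.91 within clone 10, -1.62 within clone 15 and between -1.85 and -1.64 with 1 array left out, and since Myb was selected on it, this is no evidence of stability. The clone term and the difference of the day 4 KO effect between clones gave 0 member calls under every alternative run. The 1 member call at day 4 became 2 with the replicate block, the filter at the table median, the floor at the 25th percentile, centring on housekeeping genes and trended robust moderation, and 0 with 1 mean per clone and group, with only the arrays of the day, with the brightest probe set of each gene and within either clone alone; with 1 array left out it was 0 to 1. Of the list genes, 2 at day 4 became 1 with only the arrays of the day and with housekeeping centring, 4 with the filter and 0 within either clone (1 to 2 with 1 array left out). The 5 at day 12 became 3 with 1 mean per clone and group, 2 with only the arrays of the day, 0 within either clone, 6 with the block and with the filter, and 7 with the brightest probe set of each gene, with the floor and with trended robust moderation (3 to 5 with 1 array left out). Why these counts moved was not tested. Some of those fits held fewer arrays or fewer probe sets than the main fit, and others held all of them. Under the block Tfdp2 and Gata3 at day 12 had limma adjusted p of 0.0507 and 0.0609. Over all probe sets the 102 higher and 7 lower calls of day 4 became 76 and 16 with housekeeping centring, which moved the median of all probe sets to -0.12 on the log2 scale, 13 and 1 with only the arrays of the day, and 218 and 54 with the floor. The 395 and 151 of day 12 became 131 and 24 with only the arrays of the day, 204 and 53 with 1 mean per clone and group, 601 and 433 with the block, and 757 and 379 with the floor.

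Some signs of differences that did not pass turned. The clone difference of Mybl1 1456951_at was -0.0096 with only the arrays of day 4, that of Mybl1 1450481_at was 0.057 with the floor, and that of Mybl2 1454946_at was 0.0068 with only the arrays of day 4 and ran from -0.27 to 0.0038 with 1 array left out. The day 4 KO difference of Mybl2 ran from -0.12 to 0.38 on 1417656_at and from -0.44 to 0.15 on 1454946_at with 1 array left out. The dim Mybl1 probe set is limited by its low signal, and 4 arrays per group left intervals of over 1 log2 unit on Mybl2.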
